A study of Mus musculus with 6 samples.

Results

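The mitochondrial ribosomal proteins were described in leukemia cells taken by sorting from the marrow of mice given cytarabine and of control mice. The members were all genes whose symbols begin with Mrpl or Mrps followed by a number, and 76 of the 23284 genes met this rule. The rule used symbols alone and no measured value, but it was chosen with earlier results of these data known. They comprised 49 proteins of the large subunit, 26 of the small subunit and Mrps36, which carries the name but belongs to neither subunit. All 76 genes had a mean of at least 1 FPKM (fragments scaled to exon length and library size) and were tested.

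Mitochondria make a small set of respiratory chain subunits on ribosomes of their own, which descend from bacterial ribosomes but have gained many proteins that bacteria lack. All of their proteins are encoded in the nucleus, made in the cytoplasm, imported and assembled with the ribosomal RNA of the mitochondrial genome. In acute myeloid leukemia (AML), mitochondrial translation and respiration have been studied as a dependency of the leukemia cells and in connection with survival under cytarabine, a nucleoside analog that blocks DNA synthesis.

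The cells were C1498, a mouse AML line, carrying a retroviral green fluorescent protein (GFP) gene and expanded from 1 clone, so that no other leukemia genotype was sampled. They had been injected intravenously into C57BL/6 J mice, female and 8 to 10 weeks old by the general statement of the methods, and GFP+ CD49b+ cells were sorted 21 days later from femur, tibia and pelvis of 3 mice treated with cytarabine and of 3 control mice, which are called untreated in the protocol and PBS in the sample names. The comparison asked how the leukemia cells that remained after chemotherapy differed in RNA from those that grew without it. Each mouse gave 1 library, so p-values measured the spread between 3 mice per group. In sorted pools, fewer cells of a type and less RNA per cell cannot be told apart.

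The libraries held about 11540000 to 18760000 reads, as inferred from the steps between low FPKM values, and at that depth a gene at 10 FPKM on 1 kb of exon rested on 115.4 to 187.6 reads. The leukocyte gene Ptprc lay at 284 to 386 FPKM throughout, whereas 7 of 8 markers of myeloid leukemia cells were low in every library, with highest values of 1.59 FPKM for Kit, 2.12 for Cd33, 2.18 for Cebpa, 3.83 for Csf3r, 4.76 for Itgam, 5.81 for Csf1r and 7.72 for Cd34. The eighth, the granule enzyme gene Mpo, measured 71.1 FPKM in cytarabine 1, 3.13 and 2.33 FPKM in the other cytarabine libraries, and from 7.83 to 12.3 FPKM in controls. The gate gene Itga2, which encodes CD49b, lay at 7.79 to 8.11 FPKM after cytarabine and at 10.6 to 13.3 FPKM in controls. Genes of other tissues and cells were read as well. The summed level of 12 colon epithelium markers was 331, 4395 and 4571 FPKM in cytarabine 1, 2 and 3 against 2026, 24.8 and 24.0 FPKM in control 1, 2 and 3. Heart muscle markers, 12 in all, summed to 8.07, 25.5 and 795 FPKM after cytarabine and to 3034, 629 and 60.7 FPKM in controls, and the 7 smooth muscle markers to 102, 742 and 892 FPKM after cytarabine and to 759 FPKM in control 1, 126 FPKM in control 2 and less in control 3. The 10 neutrophil markers summed to 1562, 260 and 250 FPKM after cytarabine and to between 1493 and 2103 FPKM in controls, and 7 of the 10 were lower at an unadjusted p under 0.05. Erythroid markers summed to 148, 16.3 and 22.7 FPKM after cytarabine and to 28.3, 38.9 and 23.1 FPKM in controls. Macrophage markers summed to 11.4, 53.5 and 45.8 FPKM after cytarabine and to 27.1, 142 and 9.91 FPKM in controls. B cell markers summed to between 5.22 and 14.3 FPKM. The first principal component of all genes tested, with 63.1% of the variance, placed cytarabine 1 with control 2 and 3, and cytarabine 2 and 3 with control 1. The part of these differences in the results that follow was not tested, and several results are also given without cytarabine 1.

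The genes for the mitochondrial ribosome were transcribed at moderate and even levels. Mean FPKM over the 6 libraries ran from 10.4 for Mrpl17 to 182 for Mrps21, a ratio of 17.6, with a median of 49.7, and no member lay below 9.68 FPKM in any library. Of the 76, 61 lay between 20 and 100 FPKM, 6 lay lower and 9 lay higher. The highest levels after Mrps21 were those of Mrpl33 at 173, Mrpl18 at 162, Mrpl12 at 159, Mrpl20 at 159 and Mrpl30 at 158 FPKM, and the ranges of neighbors in this order overlapped. The lowest after Mrpl17 were Mrpl11 at 12.0, Mrpl1 at 14.5 and Mrpl35 at 16.0 FPKM, where the ranges overlapped except between Mrpl17 and Mrpl11. For scale, the 81 cytoplasmic ribosomal protein genes tested had a median of 1771 FPKM.

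After cytarabine the set as a whole stayed close to its level in control mice. The members' FPKM summed to 4428 ± 153 after cytarabine and 4549 ± 136 in controls (SD, n = 3 mice per group), which was 0.694% ± 0.012 and 0.704% ± 0.019 of all FPKM. The sums were 4571, 4446 and 4267 FPKM in cytarabine 1, 2 and 3 and 4424, 4529 and 4693 FPKM in control 1, 2 and 3. The groups overlapped, with the highest sum in control 3 and the lowest in cytarabine 3. The median log2 fold change of the members, cytarabine over control on the log2(FPKM + 1) scale, was -0.07 (quartiles -0.13 and 0.04), beside -0.0015 for all 11703 genes tested and -0.05 for the 6353 genes tested within the members' range of mean FPKM. Under quantile normalization the median was -0.06 for the members and for all genes alike. The estimate was below 0 for 50 members and above 0 for 26.

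No member passed an adjusted p under 0.05 in limma (Benjamini-Hochberg over all genes tested), and neither did any other gene (0.00%). The smallest adjusted p of a member in limma was 0.151, for Mrpl48. At an unadjusted p under 0.05, 10 members (13.2%) were called, 4 higher and 6 lower, beside 17.4% of all genes tested (7.6% higher and 9.81% lower) and 20.6% of the genes within the members' range (7.73% higher and 12.9% lower). In 15 members (19.7%) the groups did not overlap, 3 (3.95%) with cytarabine above and 12 (15.8%) with cytarabine below, beside 23.8% of all genes tested (10.9% above and 12.9% below) and 25.5% of the genes within the range (15.4% below). With both directions pooled, the members' share was below that of the other genes by both rules, and the 15.8% without overlap and lower was near the 15.4% of the genes within the range, so the counts are not a result about the set. They also changed when single libraries were left out. Without cytarabine 1, 18 members (23.7%) were lower, beside 17.4% of all genes. The number higher was 1 (1.32%) without cytarabine 2, 2 (2.63%) without control 1, 1 (1.32%) without control 2 and 0 without control 3. The share of all genes higher in these refits was, in the same order, 5.29%, 8.74%, 5.05% and 5.02%.

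The precision of the members limited how large an unseen difference could be. The 95% interval of the log2 fold change lay within 1 of 0 for 76 of 76 members and within 0.5 of 0 for 70 of 76. No member differed by 0.5 or more on the log2 scale, whereas 16.7% of all genes tested did, and 8.53% of those within the members' range. The spread between mice was also smaller: the median pooled SD of log2(FPKM + 1) was 0.098 for the members and 0.13 for the genes within their range. Those genes were not matched to the members on level, with a median of 26.8 FPKM against 49.7 FPKM for the members.

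**Figure D1:**
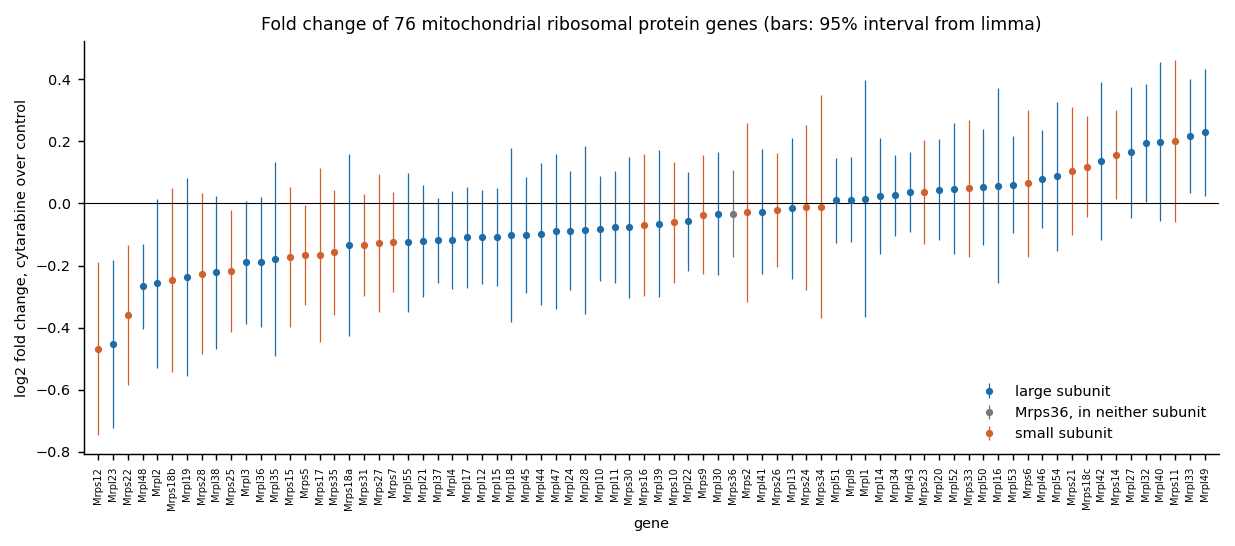
Log2 fold change, cytarabine over control, of the 76 mitochondrial ribosomal protein genes in order of their value, with the 95% interval from limma as a line (3 mice per group). The lowest are Mrps12 at -0.47 and Mrpl23 at -0.45, the highest is Mrpl49 at 0.23, and 50 of the 76 lie below 0.

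The lower members were led by a protein of the decoding site. Mrps12 (chr7:28739641-28741820, minus strand) encodes the counterpart of bacterial S12, which lines the decoding center of the small subunit. It measured 50.2, 45.9 and 40.1 FPKM in cytarabine 1, 2 and 3 and 55.8, 66.4 and 67.0 FPKM in control 1, 2 and 3. All cytarabine libraries lay below all controls, and the means were 45.4 ± 5.06 and 63.1 ± 6.28 FPKM. The log2 fold change was -0.47 (SE 0.11, 95% interval -0.75 to -0.19, adjusted p = 0.167 in limma).

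Mrps22 (chr9:98588730-98601660, minus strand) encodes a small-subunit protein without a bacterial homolog, and inherited defects in it impair assembly of that subunit. Its levels were 37.1, 30.7 and 31.3 FPKM after cytarabine and 44.1, 40.2 and 43.3 FPKM in controls. Again no cytarabine library reached a control, with cytarabine 1 the nearest. The log2 fold change was -0.36 (SE 0.092, 95% interval -0.58 to -0.13, adjusted p = 0.178 in limma). Mrps25 (chr6:92169525-92184033, minus strand), also confined to mitochondrial ribosomes, gave 22.1, 18.7 and 19.9 FPKM after cytarabine and 23.1, 23.2 and 24.7 FPKM in controls. The groups were separated by a narrow margin between cytarabine 1 and control 1, and the log2 fold change was -0.22 (SE 0.080, adjusted p = 0.254 in limma). Mrps5 (chr2:127587222-127606829, plus strand), the counterpart of bacterial S5 near the entry of the mRNA channel, gave 79.8, 79.5 and 76.3 FPKM against 85.2, 85.0 and 95.0 FPKM. It too was separated, with a log2 fold change of -0.17 (SE 0.066, adjusted p = 0.278 in limma).

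The lower members of the large subunit were Mrpl23 and Mrpl48. Mrpl23 (chr7:142532686-142540747, plus strand) is the counterpart of bacterial L23 at the mouth of the tunnel through which the new chain leaves. It measured 45.8, 59.4 and 51.0 FPKM after cytarabine and 67.3, 69.9 and 76.8 FPKM in controls. Here cytarabine 1 was the lowest library, and the groups did not overlap (log2 fold change -0.45, SE 0.11, 95% interval -0.72 to -0.18, adjusted p = 0.167 in limma). Mrpl48 (chr7:100545751-100608301, minus strand), a protein of the central protuberance, measured 41.1, 39.7 and 42.4 FPKM after cytarabine and 48.9, 50.6 and 49.2 FPKM in controls. Its groups were tight and well apart, with means of 41.0 ± 1.37 and 49.6 ± 0.939 FPKM and a log2 fold change of -0.27 (SE 0.055, 95% interval -0.40 to -0.13, adjusted p = 0.151 in limma). With the colon and heart marker scores as covariates the estimate was -0.15 and was no longer called. That fit estimates more terms from the same 6 libraries. In it 2.28% of all genes tested were lower and 2.47% higher, beside 9.81% and 7.6% without the covariates.

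The 4 higher members had log2 fold changes between 0.16 and 0.23. Mrpl49 (chr19:6053622-6057785, minus strand), a large-subunit protein without a bacterial homolog, gave 33.0, 32.3 and 38.2 FPKM after cytarabine and 28.1, 29.6 and 30.0 FPKM in controls. Every cytarabine library was above every control, and the log2 fold change was 0.23 (SE 0.083, adjusted p = 0.252 in limma). Mrpl33 (chr5:31596935-31664384, plus strand), the counterpart of bacterial L33, gave 182.8, 203.6 and 173.1 FPKM against 161.3, 155.2 and 163.6 FPKM. The groups were separated (log2 fold change 0.22, SE 0.075, adjusted p = 0.237 in limma), but with the colon and heart marker scores as covariates the estimate was -0.04. Mrps14 (chr1:160195215-160202170, plus strand), which sits in the head of the small subunit, gave 30.9, 31.9 and 29.8 FPKM against 27.4, 28.3 and 26.9 FPKM. It was also separated, at a log2 fold change of 0.16 (SE 0.058, adjusted p = 0.260 in limma). Mrpl32 (chr13:14608184-14613165, minus strand), whose precursor is cleaved by the m-AAA protease before it joins the large subunit, gave 56.4, 56.6 and 50.3 FPKM against 50.7, 45.9 and 45.5 FPKM. Cytarabine 3 lay just under control 1, so these groups overlapped (log2 fold change 0.20, SE 0.077, adjusted p = 0.279 in limma), and with the covariates the estimate was 0.01.

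**Figure D2:**
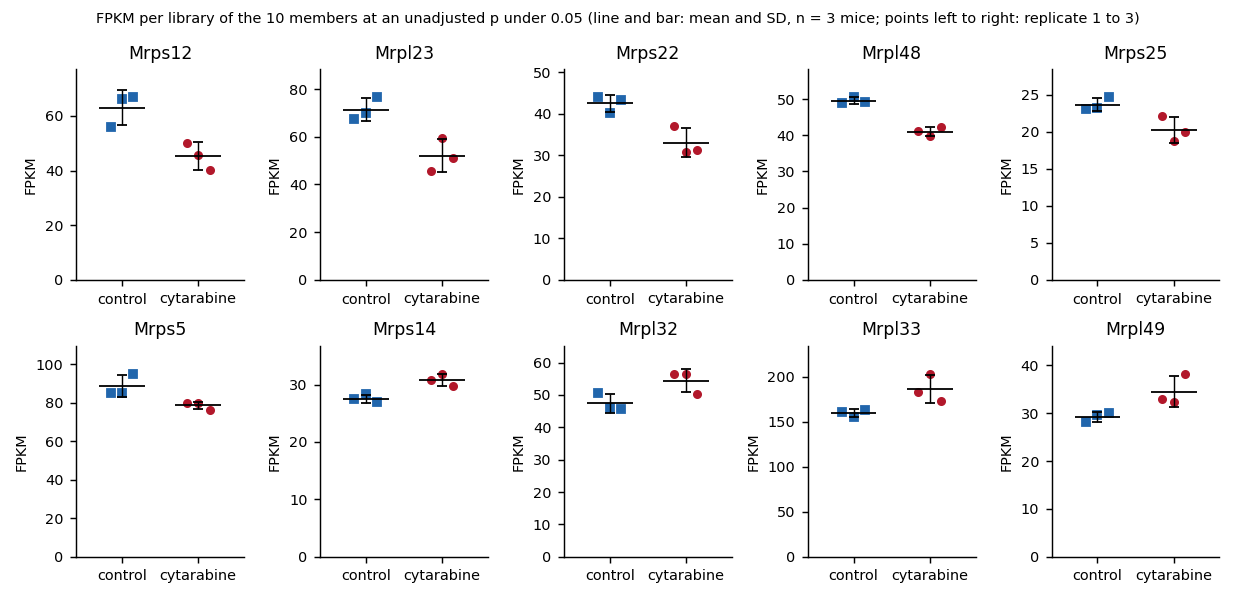
FPKM in each library of the 10 members called at an unadjusted p under 0.05, with the mean and SD of 3 mice per group (squares, control; circles, cytarabine; points from left to right are replicates 1 to 3). The groups overlap in 1 of the 10, Mrpl32.

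Mrps12, Mrpl23, Mrps22 and Mrpl48 stayed at an unadjusted p under 0.05 with each of the 6 libraries left out in turn. The other 6 did not. The share of all genes tested that stayed so is not given, so this is not a result about the set. With the marker scores as covariates, Mrps12 at -0.44 and Mrpl23 at -0.72 were the only ones of the 10 still called, and Mrps22 was at -0.36. Mrps25 was at -0.12 there, and Mrpl49 at 0.43. Of all genes tested, 2.28% were lower and 2.47% higher in that fit. Among the refits without a library, Mrps25 was called again only without cytarabine 1, Mrps14 only without cytarabine 3, Mrpl32 without cytarabine 3 or control 1, Mrpl33 without cytarabine 1 or 3, Mrpl49 without cytarabine 1 or 2, and Mrps5 in none of the 6 refits.

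Reads of some of these genes may not be theirs alone. Exons of 25 members share bases with exons of another gene in the GENCODE annotation of GRCm38, 5 on the same strand and 21 on the opposite strand. Mrps25 shares a stretch of 3533 bases with Nr2c2, Mrpl48 shares 403 with Rab6a and Mrpl49 shares 91 with Syvn1, each on the opposite strand, and Mrpl33 shares 107 with Gm43809 on the same strand. The library kit keeps the strand, but whether it was used in the FPKM estimate was not stated. Mrpl23 and Mrpl48 each have a named pseudogene, as do 2 other members, and the values of these 4 are uncertain to that extent.

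Other proteins with well-defined places in the ribosome were not called with all libraries. Mrpl12, the factor-binding stalk protein, gave 160, 154 and 145 FPKM after cytarabine and 159, 171 and 165 FPKM in controls. These groups overlapped through cytarabine 1 (log2 fold change -0.11, SE 0.061, adjusted p = 0.383 in limma), and for Mrpl10, which anchors the stalk, the value was -0.08 (adjusted p = 0.516). Mrpl45, which holds the ribosome to the inner membrane, was at -0.10 (adjusted p = 0.472 in limma). Among the Mrps18 paralogs, Mrps18a, which sits in the large subunit, was at -0.13 (adjusted p = 0.532 in limma), Mrps18b at -0.25 (adjusted p = 0.340) and Mrps18c at 0.12 (adjusted p = 0.376). Mrps18b gave 97.5, 71.9 and 77.5 FPKM after cytarabine and 97.6, 93.1 and 100.4 FPKM in controls, so that only cytarabine 1 reached the controls. Mrps30, a large-subunit protein despite its symbol, was at -0.08 (adjusted p = 0.647 in limma). The extremes of level, Mrps21 at 0.10 and Mrpl17 at -0.11, were not called either. Without cytarabine 1, Mrps18a at -0.25, Mrps18b at -0.37 and Mrps21 at 0.18 were called at an unadjusted p under 0.05. In that refit 17.4% of all genes were lower and 17.5% higher. The others in this paragraph were still not called, and Mrpl12 ran from -0.14 to -0.07 when 1 library was left out.

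By place and descent, the calls were spread over the classes. In the small subunit 4 of 26 members (15.4%) were called lower and 1 (3.85%) higher, with a median log2 fold change of -0.07. In the large subunit 2 of 49 (4.08%) were called lower and 3 (6.12%) higher, with a median of -0.08. Of all genes tested, 9.81% were lower and 7.6% higher, and of those within the members' range 12.9% and 7.73%. The differences between classes were not tested. The 10 small-subunit proteins classed as mitochondria-specific had the lowest median, -0.13, with 2 (20%) called lower and none higher. The 19 such proteins of the large subunit had a median of 0.01, with 1 (5.26%) called in each direction. Mrps18b and Mrps18a were counted in these classes, although their paralog Mrps18c was counted with the bacterial homologs. Among the members classed as bacterial homologs, the median was -0.09 for the 30 of the large subunit and -0.05 for the 16 of the small subunit.

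The members moved differently among the cytarabine libraries. Their median deviation from the gene mean, in log2(FPKM + 1), was 0.02, -0.04 and -0.08 in cytarabine 1, 2 and 3 and -0.0029, 0.02 and 0.08 in control 1, 2 and 3. Cytarabine 1 thus stood among the controls, and control 3 and cytarabine 3 were the extremes. Control 3 held the highest value of 24 members and cytarabine 1 that of 16, whereas cytarabine 3 held the lowest value of 29 members and cytarabine 2 that of 16.

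**Figure D3:**
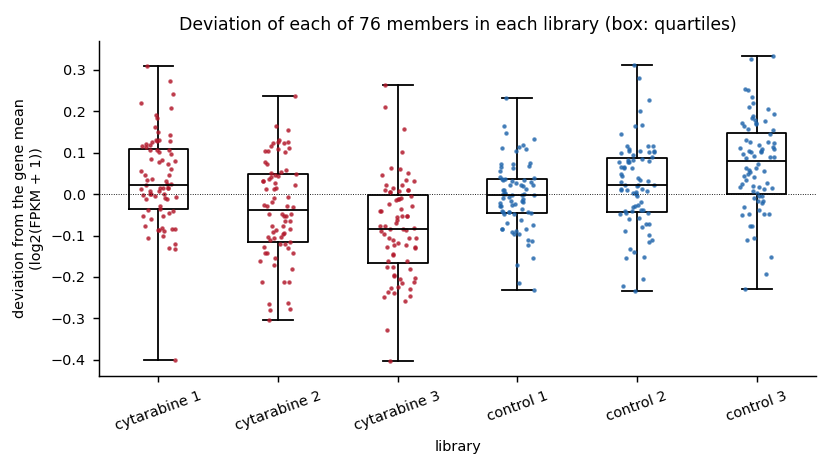
Deviation of each of the 76 members from its mean over the 6 libraries, in log2(FPKM + 1), by library (points, members; box, median and quartiles; whiskers, lowest and highest). The median is lowest in cytarabine 3, at -0.08, and highest in control 3, at 0.08, and that of cytarabine 1 lies among the controls.

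Without cytarabine 1 the number of lower members was 18, against 6 with all libraries, (23.7%) and that of higher members was 4, beside 17.4% lower and 17.5% higher among all genes then tested. In 33 members (43.4%) the remaining cytarabine libraries both lay below all controls, beside 28.5% of all genes. In 7 members (9.21%) they both lay above, and the share of all genes is not given for that direction. Shares within the members' range are not given for this refit. With all libraries, 15.4% of the genes within the range and 12.9% of all genes lay below without overlap. Of the 18, 5 had been called lower with all libraries. The largest of these differences were those of Mrps12 at -0.54, Mrps22 at -0.44, Mrps18b at -0.37 and Mrpl19 at -0.37, and no adjusted p in limma was under 0.05.

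Within the sides of the first principal component, the median log2 difference of the members was -0.02 between cytarabine 1 and control 2 and 3, and -0.06 between cytarabine 2 and 3 and control 1. For all genes tested these medians were 0.0073 and 0.0064. The difference was below 0 for 42 members on the former side and for 49 on the latter, and 27 members had opposite signs. Mrps12 was at -0.40 and -0.37, Mrpl48 at -0.28 and -0.25, Mrpl23 at -0.67 and -0.29, and Mrps22 at -0.16 and -0.49. For members whose groups do not overlap the sign is fixed on both sides, so that only the sizes are informative.

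**Figure D4:**
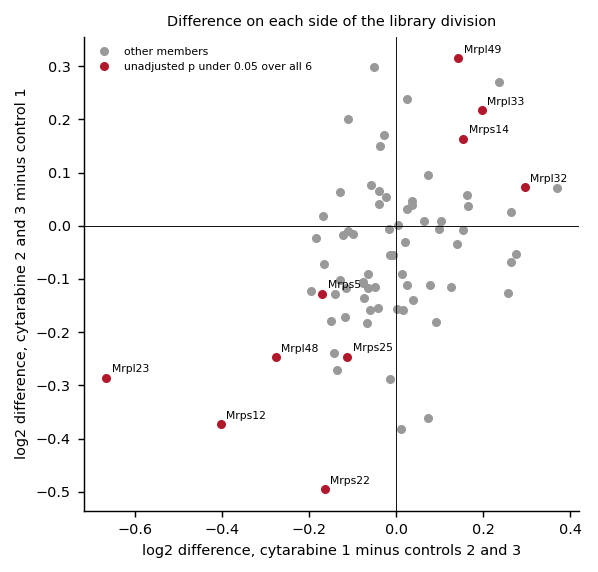
Log2 difference of each member between cytarabine 1 and control 2 and 3 (x axis) and between cytarabine 2 and 3 and control 1 (y axis), on the log2(FPKM + 1) scale, with the 10 called members in red. Mrps12 and Mrpl48 have like differences on both axes, and 27 members differ in sign.

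The start regions of 2 lower and 2 higher members are shown because many nuclear genes for mitochondrial proteins are known to carry sites for NRF1, GABPA or YY1 near their starts. RefSeq sequence of GRCm38.p6 is given for the 250 bases before the start, 5′ to 3′ on the strand of the gene, and for Mrps12 only the 170 bases up to the start of Sars2. Capitals mark matches on either strand to GCGCNNGCGC (NRF1), CCGGAAG (GABPA), AAGATGGC (YY1), GGGCGG (SP1), CCAAT (NFY) or CACGTG (MYC).
Mrps12, chr7:28741822-28741991, minus strand: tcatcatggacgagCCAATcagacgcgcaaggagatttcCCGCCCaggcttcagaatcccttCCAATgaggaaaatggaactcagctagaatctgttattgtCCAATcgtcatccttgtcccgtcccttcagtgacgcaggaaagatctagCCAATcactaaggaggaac
Mrps22, chr9:98601680-98601929, minus strand: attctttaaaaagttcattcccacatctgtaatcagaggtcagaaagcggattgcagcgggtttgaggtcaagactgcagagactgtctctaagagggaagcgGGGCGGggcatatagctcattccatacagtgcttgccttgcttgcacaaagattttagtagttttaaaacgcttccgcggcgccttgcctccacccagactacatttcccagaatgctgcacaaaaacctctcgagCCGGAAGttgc
Mrpl33, chr5:31613701-31613950, plus strand: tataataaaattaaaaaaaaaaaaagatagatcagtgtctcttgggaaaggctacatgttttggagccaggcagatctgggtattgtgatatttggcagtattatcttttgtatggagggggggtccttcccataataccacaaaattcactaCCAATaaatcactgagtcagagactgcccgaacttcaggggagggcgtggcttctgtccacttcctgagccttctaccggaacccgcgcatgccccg
Mrps14, chr1:160194965-160195214, plus strand: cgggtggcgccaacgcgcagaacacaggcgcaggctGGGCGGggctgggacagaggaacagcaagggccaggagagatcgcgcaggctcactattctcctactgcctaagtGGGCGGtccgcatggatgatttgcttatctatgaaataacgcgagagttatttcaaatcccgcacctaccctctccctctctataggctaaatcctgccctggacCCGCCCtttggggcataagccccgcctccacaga

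In these windows Mrps12 held 4 matches to CCAAT and 1 to GGGCGG, and Mrps22 held 1 to CCGGAAG and 1 to GGGCGG. Of the higher members, Mrpl33 held 1 match to CCAAT and Mrps14 held 3 to GGGCGG. The GENCODE model of Mrpl33 also has a transcript that starts farther upstream. For the shares that follow, a promoter ran from 250 bases before the start to 50 after it, unlike the printed windows. Promoters were found for 67 of the 76 members, 73 in all. The GABPA motif was in 23.3% of the members' promoters, beside 13.7% of the 10650 promoters of genes tested and 6.91% of all 32851. The YY1 motif was in 5.48%, beside 1.90% of those of genes tested, and the NRF1 motif was in 12.3%, beside 10.5%. The SP1 motif was in 49.3%, beside 56.7%, the NFY motif in 38.4%, beside 35.6%, and the MYC motif in 9.59%, beside 8.36%. The GABPA motif stood in 2 of 9 promoters of lower members and in 0 of 4 of higher members. These matches are descriptions of the sequence.

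Some members share a short start region with a gene read in the other direction. By the GENCODE annotation, 17 of the 76 (22.4%) have a protein-coding neighbor on the opposite strand that starts within 1000 bases upstream. The share was 10.5% of the 10246 protein-coding genes tested. Opposite-strand pairs in which each start lies inside the other gene were not counted. Of the 16 neighbors tested, none was called at an unadjusted p under 0.05, beside 17.4% of all genes tested. In 12 of the 16 the estimate had the same sign as that of the member. The share of same signs among such pairs of other genes was not computed, so this count is not a result about the pairs. Mrps12 starts 172 bases from Sars2, the mitochondrial seryl-tRNA synthetase, whose log2 fold change was -0.29 (SE 0.12, adjusted p = 0.290 in limma), with overlapping groups. Mrpl49 starts 59 bases from Fau, which encodes cytoplasmic ribosomal protein S30, at 0.09, and Mrpl32 starts 75 bases from the proteasome gene Psma2, at 0.05.

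The other parts of mitochondrial gene expression were described by lists. Of the 15 translation factors and helpers tested, 5 (33.3%) were lower and none was higher at an unadjusted p under 0.05, beside 9.81% lower among all genes tested. All 15 estimates were below 0, with a median of -0.15, and 14 were with FPKM rescaled to an equal sum. Mrrf, the recycling factor that splits the mitochondrial ribosome after termination, gave 11.7, 10.1 and 9.49 FPKM after cytarabine and 14.9, 15.5 and 16.0 FPKM in controls. The groups were well apart, with a log2 fold change of -0.53 (SE 0.093, 95% interval -0.76 to -0.30, adjusted p = 0.136 in limma). Tufm, the elongation factor that brings aminoacyl-tRNA, gave 90.3, 77.1 and 82.2 FPKM against 101, 92.0 and 100.3 FPKM, without overlap (log2 fold change -0.23, adjusted p = 0.236 in limma). Lrpprc, which stabilizes mitochondrial mRNA, was at -0.24 (adjusted p = 0.255 in limma) but at 0.03 with the marker scores as covariates. With those covariates 1 of the 15 was called lower, beside 2.28% of all genes, and 12 estimates were below 0. The number called lower was 7 without cytarabine 1, 1 without cytarabine 2 and 2 when cytarabine 3 or any 1 control was left out. Of all genes, 17.4% were lower without cytarabine 1, and from 4.92% to 9.59% without any other library.

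Genes of mitoribosome assembly and ribosomal RNA processing went both ways. Of 28 tested, 6 were lower and 2 higher at an unadjusted p under 0.05 (28.6% called), with a median of -0.05. Of all genes tested, 17.4% were called, 9.81% lower and 7.6% higher. Gtpbp8, a GTPase of this group, gave 11.5, 11.2 and 13.5 FPKM after cytarabine and 8.97, 7.62 and 8.29 FPKM in controls, and was the clearest of the higher genes. Its groups did not overlap (log2 fold change 0.49, SE 0.10, adjusted p = 0.151 in limma), and Trub2, a pseudouridine synthase, was at 0.20 (adjusted p = 0.251). Lower genes included Ftsj2, the methyltransferase now called Mrm2, at -0.40 (adjusted p = 0.206 in limma), the GTPase Noa1 at -0.39 (adjusted p = 0.214) and Mterfd1, now Mterf3, at -0.26 (adjusted p = 0.202). Leaving out control 3 reduced the lower genes to 2, and leaving out control 2 reduced them to 3. In these refits 4.92% and 5.64% of all genes were lower. With the marker scores as covariates 2 genes of the list were lower and 0 higher, beside 2.28% and 2.47% of all genes.

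For the mitochondrial genome itself, 2 of the 9 genes tested for its copying and transcription (22.2%) were called, both lower. Of all genes tested, 9.81% were lower. Peo1, the helicase of the replication fork also named Twnk, gave 8.04, 7.81 and 8.41 FPKM after cytarabine and 11.7, 11.0 and 11.5 FPKM in controls. It was among the most even of the differences, with every cytarabine library well below every control (log2 fold change -0.45, SE 0.071, 95% interval -0.62 to -0.28, adjusted p = 0.135 in limma). Its exons overlap those of Mrpl43 by 278 bases on the opposite strand, and Mrpl43 itself was at 0.04. Polrmt, the RNA polymerase of mitochondria, gave 11.1, 8.72 and 8.45 FPKM against 12.7, 13.8 and 13.8 FPKM. No cytarabine library reached a control (log2 fold change -0.48, SE 0.11, adjusted p = 0.166 in limma). Neither was called with the marker scores as covariates, where 2.28% of all genes tested were lower. The other 7 included Tfam, the packaging and transcription factor of mitochondrial DNA, at 0.05, and Tfb2m, a transcription factor of the same promoters, at 0.20. The mRNAs of the mitochondrial genome were not analysed here.

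**Figure D5:**
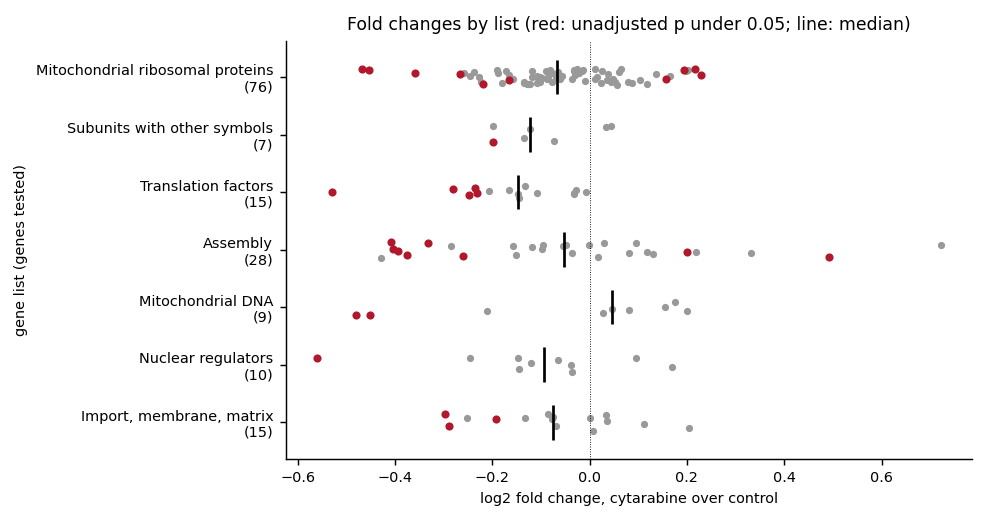
Log2 fold change, cytarabine over control, of the genes tested in each list of mitochondrial gene expression (points, genes; red, unadjusted p under 0.05 in limma; vertical line, median of the list). The median is -0.07 for the 76 mitochondrial ribosomal proteins and -0.15 for the 15 translation factors, all of which lie below 0.

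The 7 ribosome subunits whose symbols fall outside the rule had a median of -0.12. Of these 1 (14.3%) was called lower, the rescue factor Ict1 at -0.20 (adjusted p = 0.236 in limma), beside 9.81% of all genes tested. Of 10 nuclear regulators, Myc alone (10%) was called, and it was lower. It gave 33.4, 27.1 and 20.9 FPKM after cytarabine and 36.5, 35.6 and 48.5 FPKM in controls, with every cytarabine library below every control (log2 fold change -0.56, SE 0.20, adjusted p = 0.248 in limma). Of the other regulators with a motif above, Nrf1 at -0.15, Gabpa at -0.12 and Yy1 at 0.09 were not called. Among 15 genes for import, membrane and matrix proteins, 3 (20%) were lower and none higher, beside the 9.81% and 7.6% of all genes tested. These were the chaperones Hspa9 at -0.19 (adjusted p = 0.214 in limma) and Hspd1 at -0.30 (adjusted p = 0.266), and the import pore Tomm40 at -0.29 (adjusted p = 0.269), of which Hspd1 and Tomm40 had overlapping groups. The 3 became 5 without cytarabine 1, 2 without control 2 and 0 when any of the other libraries was left out. Of all genes, 17.4% were lower without cytarabine 1, and from 4.92% to 9.59% without any other library. Ict1 was called only when cytarabine 2 or control 1 was left out, and Myc only when cytarabine 1, control 1 or control 2 was.

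The mitochondrial ribosomal proteins were set beside those of the cytoplasmic ribosome and of the respiratory chain. Of 81 cytoplasmic ribosomal protein genes tested, 1 was higher (1.23%) and 5 were lower (6.17%) at an unadjusted p under 0.05, with a median of -0.04. Of all genes tested, 7.6% were higher and 9.81% lower. The number lower ran from 1 to 17 when 1 library was left out, with 17 without cytarabine 2, where 5.83% of all genes were lower. With the marker scores as covariates 11 were lower and 0 higher, beside 2.28% and 2.47% of all genes, and the median was -0.25. Of 81 genes for subunits of oxidative phosphorylation, 20 were higher (24.7%) and 2 lower (2.47%), beside 7.6% and 9.81% of all genes tested, with a median of 0.13 and a range of -1.15 to 1.98. The number higher was 36 without cytarabine 1, where 17.5% of all genes were higher. It was 12 without cytarabine 2, control 2 or control 3, where 5.02% to 5.29% of all genes were higher. With the marker scores as covariates it was 1, beside 2.47% of all genes. This list includes isoforms of heart and smooth muscle, whose markers varied between libraries as given above. The differences between these lists were not tested.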

How the data were processed

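RNA of 6 sorted samples (3 cytarabine, 3 control) was analysed. Per the labels, the authors aligned reads to mm10 by TopHat2 2.0.13, Bowtie2 2.2.3 and SAMtools 0.1.19, and deposited FPKM per gene from Cufflinks 2.2.1. The gene annotation is not given in the sources used here. Groups and replicate numbers came from the sample names, and same numbers are different mice.

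The deposited FPKM were put on the log2(FPKM + 1) scale, and 11703 genes whose mean reached 1 FPKM entered linear models (lmFit, then eBayes allowing a trend) of limma 3.58.1, run in R 4.3.3, with two-sided p-values adjusted by Benjamini-Hochberg. A count test was not run, as no counts were used. Adding 1 understates the fold change of low genes. Depth was inferred with fragments of 200 bases, and 72.4% to 76.7% of low values lay within 0.1 of a whole read. Positions are from GENCODE for GRCm38.

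The members and lists were chosen with earlier results of these data known. Genes named are members at an unadjusted p under 0.05 without overlap, up to 8 in each direction, fixed members of known place, the 2 highest and 2 lowest in level, and up to 3 per direction of each list. Mrpl18, Mrpl20, Mrpl30, Mrpl1, Mrpl35, Mrpl19, Mrpl24, Mrpl38 and Mrpl43 were named after their values were seen. So were Tfam, Tfb2m, Nrf1, Gabpa, Yy1 and the neighbors. Alternatives were other pseudocounts, filters, scalings and eBayes settings, a replicate block, marker scores as covariates and leaving out libraries. The division by principal component was added after the data were seen.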

Additional observations from a re-analysis of the deposited data

How the results depend on the processing

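No adjusted p under 0.05 was reached by a member under any alternative. The members' median stayed below 0 under every alternative, between -0.09 and -0.03 when 1 library was left out, and was -0.02 within the 4 libraries above the gap in the colon score (for all genes tested, 0.01). Under quantile normalization it was -0.06, as was the median of all genes. The number of lower members was 4 to 18 when 1 library was left out, with 18 only without cytarabine 1. Of all genes, 17.4% were lower and 17.5% higher without cytarabine 1. Without any other library, 4.92% to 9.59% were lower and 5.02% to 8.74% higher. The number of higher members was 0 to 4 when 1 library was left out (1 without cytarabine 2, 2 without control 1, 1 without control 2 and 0 without control 3), 2 without a trend in eBayes, and 0 with the colon and heart scores as covariates. There 4 members (5.26%), Mrps12, Mrpl23, Mrpl24 and Mrpl38, were lower, beside 2.28% of all genes lower and 2.47% higher.

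With the replicate number as a block, 0 members were higher and 4 (5.26%) lower, beside 4.09% and 4.4% of all genes tested. The count at an adjusted p stayed at 0. The numbers do not pair the mice, since same-numbered libraries had deviations correlated at -0.71, -0.25 and -0.59. Of the single genes, Mrpl33 was at -0.038 and Lrpprc at 0.029 with the covariates. Within the side with cytarabine 1, Mrps18a was at 0.040, Mrps18b at 0.011, Mrps30 at 0.092 and Mrps21 at -0.038. Mrps12 and Mrpl23 stayed under an unadjusted p of 0.05 in 16 of 16 refits. Mrpl48 and Mrps22 did in 15 of 16, the exception being the fit with the covariates. The share of all genes that did so is not given. Among the other results for single genes, 519 kept their direction and side, 111 fell short of an unadjusted p of 0.05, 26 moved by more than the spread and 3 came under it. The cause of these changes was not tested. With 3 mice a group the counts of calls are sensitive to 1 library, and the low side of the colon gap held no cytarabine library, so it gave no value.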
